A study of Mus musculus with 7 samples.

Results

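The transcriptome of the wild-type posterior second heart field (pSHF) of the mouse embryo at E9.5 was described from the 3 arrays of *Shh* +/+ pools, out of 7 arrays in the study. The other 4 arrays, from *Shh* -/- pools, entered only the joint normalization and a description of spreads and list deviations set beside those of the wild-type pools. Genes were included when a non-control probe carried a gene name, and each gene was represented by the brightest of its probes. A gene was called detected when that probe was flagged well above background on all 3 wild-type arrays. By this rule 14831 of 21439 named genes with a value in every pool were detected, which is 69.2% and serves as the background for each gene list below. No genotypes were contrasted and no test was made, since 3 pools of 1 group give a spread but no comparison.

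The embryos came from matings of superovulated *Shh* +/- females with *Shh* +/- males on a background labelled C56B/6 and CD-1 mixed, and +/+ embryos were pooled after genotyping. Each pool therefore averages several embryos, and no source used here says how many or whether pools were separate litters, so the spread below is that between these 3 pools only. The dissected piece holds the dorsal mesenchymal protrusion, the ventral lateral plate mesenchyme and the attached foregut, whereas the heart and the neural tube were removed. RNA was labelled with Cy3 alone, and each wild-type pool, numbered 1, 3 and 4, shared its slide with the mutant pool of the same number. Pool, slide and scan thus cannot be told apart. In bulk tissue, fewer cells of a type and less RNA per cell cannot be told apart either.

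The second heart field is a population of splanchnic mesoderm progenitors behind and dorsal to the early heart tube. Its posterior part adds cells to the inflow tract and the atrial septum under the influence of Hedgehog signals from the neighbouring foregut endoderm. Factors of the T-box, GATA, Forkhead and LIM-homeodomain families act in it, together with retinoic acid, Wnt, Bmp and Fgf signals.

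Values are normalized log2 signals, so that 1 unit is a 2-fold difference in brightness. A level is the mean over the 3 pools, and a brightness percentile is the position of a gene among all detected genes. Detected genes had levels between 4.27 and 17.94, with a median of 10.17 and quartiles at 7.71 and 12.28. On the individual arrays 15056, 15975 and 16308 genes were detected in pools 1, 3 and 4. The brightest probe was above background on no wild-type array for 4771 genes, and on 1 or 2 arrays for 1837. No spot was saturated, and the median spot had a signal intensity of 86.4, 111.7 and 118.9 in pools 1, 3 and 4, over local backgrounds of 23 to 25.

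Every level is read from a probe of 60 bases, and the probe matters as much as the gene. The first 30 bases of probes for core factors of the field, and for genes whose probes disagree, are shown 5′ to 3′ with their mm9 positions as the array files give them. These are the sequences behind the values of *Isl1*, *Nkx2-5*, *Osr1*, *Tbx5* and *Tbx3* below, and for the last 2 genes the brighter probe stands first.

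Isl1, chr13:117088774-117088833, minus strand: cccccaaagatgtgtatagttattggttaa
Nkx2-5, chr17:26975621-26975680, minus strand: acccgtatttatgtttttacctgttgtaag
Osr1, chr12:9586475-9586534, plus strand: ggccgccacttcactaagtcctataaccta
Tbx5, chr5:120334087-120334146, plus strand: aaatacctacctccgtcatgtgagatgtct
Tbx5, chr5:120321392-120332954, plus strand: aaatttaccactgtaccaagaggaaagatg
Tbx3, chr5:120134473-120134532, plus strand: ggcatcttactaacccatgtgaggttttca
Tbx3, chr5:120122741-120122800, plus strand: gccattctgaaatattctttacgtttagtt

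The 2 probes named *Tbx5* had levels of 12.86 and 7.01, and the 2 named *Tbx3* 13.75 and 5.12. Whether the probes of a gene read the same transcript form was not tested. The span given for the dimmer *Tbx5* probe is longer than a probe, as it is for a probe that crosses a splice junction. Over 5856 genes with 2 or more detected probes, the brightest and the dimmest differed by a median of 2.80, and by at least 2 in 63.8%. A further limit is that 2917 of 8808 genes with 2 or more probes were detected by some of their probes only. Probe GC content did not order the signals (Spearman's rho 0.0016 over detected genes, which are not independent). Levels of different genes are therefore given as brightness, and each gene is compared between pools on its own probe.

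All 30 genes of the second heart field and lateral mesoderm list were detected. The list was chosen with earlier results of these data known, so its full detection is not independent of them. Of its genes 8 lay above the upper quartile (12.28) of detected genes, beside 3708 of all 14831. *Isl1*, the LIM-homeodomain factor that marks second heart field progenitors, read 12.25, 12.40 and 12.17 in pools 1, 3 and 4. *Tbx5*, the T-box factor of the inflow tract and atrial septum, read 12.90, 12.65 and 13.02. *Nkx2-5*, a cardiac homeobox factor, read 11.90, 11.84 and 11.30. The first 2 of these stayed within 0.4 over the pools, whereas *Nkx2-5* was lowest in pool 4.

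*Osr1*, a zinc finger factor of the dorsal mesocardium and intermediate mesoderm, read 11.34, 11.44 and 12.01. Its second probe, dimmer at 9.81, 10.09 and 10.69, had the same order of pools, with pool 4 highest on both. *Wnt2*, a ligand of the pSHF and lung mesenchyme, had the highest level of the list and read 14.95, 14.82 and 14.57. Next stood *Nr2f2*, the COUP-TFII nuclear receptor of atrial and venous identity, at 14.55, 14.54 and 14.51, the smallest spread of the list (SD 0.02).

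*Tbx3*, which acts in the inflow tract and conduction tissue, read 13.88, 13.54 and 13.82. *Gata6* read 13.78, 13.81 and 13.66, and *Aldh1a2*, the enzyme that makes retinoic acid, 13.79, 13.26 and 13.32. *Tbx1*, best known from the anterior second heart field and pharyngeal mesoderm, read 14.05, 13.34 and 13.43. The last 2 genes were both highest in pool 1, with pools 3 and 4 close together.

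At the dim end of the list stood *Gata4*, at 6.57, 7.30 and 7.44, and *Foxf1a* (current symbol *Foxf1*), a Forkhead factor of splanchnic mesoderm, at 7.60, 7.72 and 7.99. *Gata4* has a second probe that was above background on 1 array only. *Hand1* read 8.63, 9.64 and 9.33 and was the only gene of the list with an SD between pools of at least 0.5 (SD 0.52). The median SD of the list was 0.216, against 0.155 over all detected genes, and its median deviation from the mean was 0.04, 0.03 and −0.05 in pools 1, 3 and 4.

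**Figure D1:**
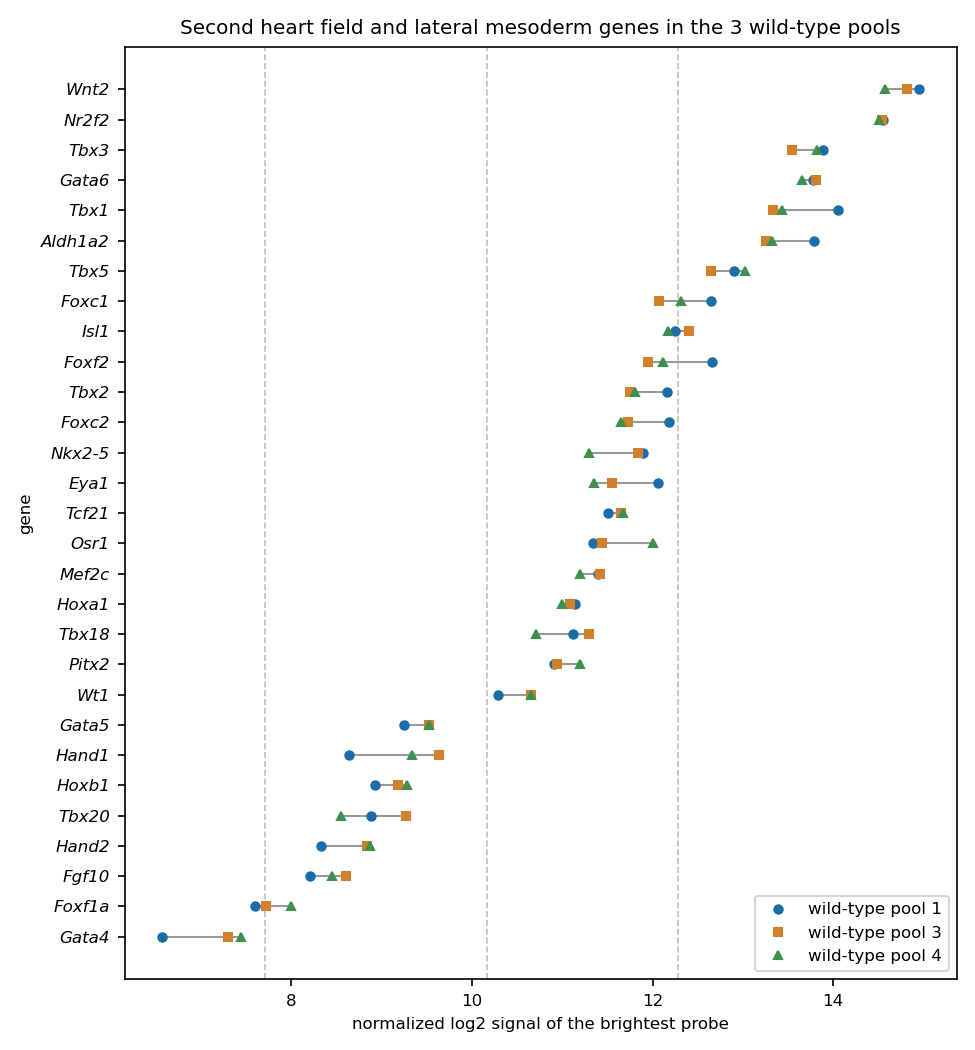
Normalized log2 signal of the brightest probe (x axis) for 29 second heart field and lateral mesoderm genes (y axis) in wild-type pools 1, 3 and 4; grey bars span the 3 pools and dashed lines mark the quartiles of all detected genes. The genes run from Gata4 near 7 to Wnt2 near 15, and for most genes the pools lie close together beside this range.

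Of the 30 genes, 13 have 2 or more probes, and in 10 of these the brightest and dimmest probe differed by at least 2. In 9 of the 13 genes all probes were detected, and among these the widest gaps were those of *Tbx3* (8.63), *Tbx5* (5.85) and *Eya1* (5.82). *Mef2c*, a MADS-box factor of cardiac progenitors, has a second probe that was above background on no array, and *Gata4*, *Gata6* and *Tbx20* also have probes not detected on all 3 arrays, so that their gaps are not given. *Hand2*, with a gap of 0.80, was read alike by both its probes.

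**Figure D2:**
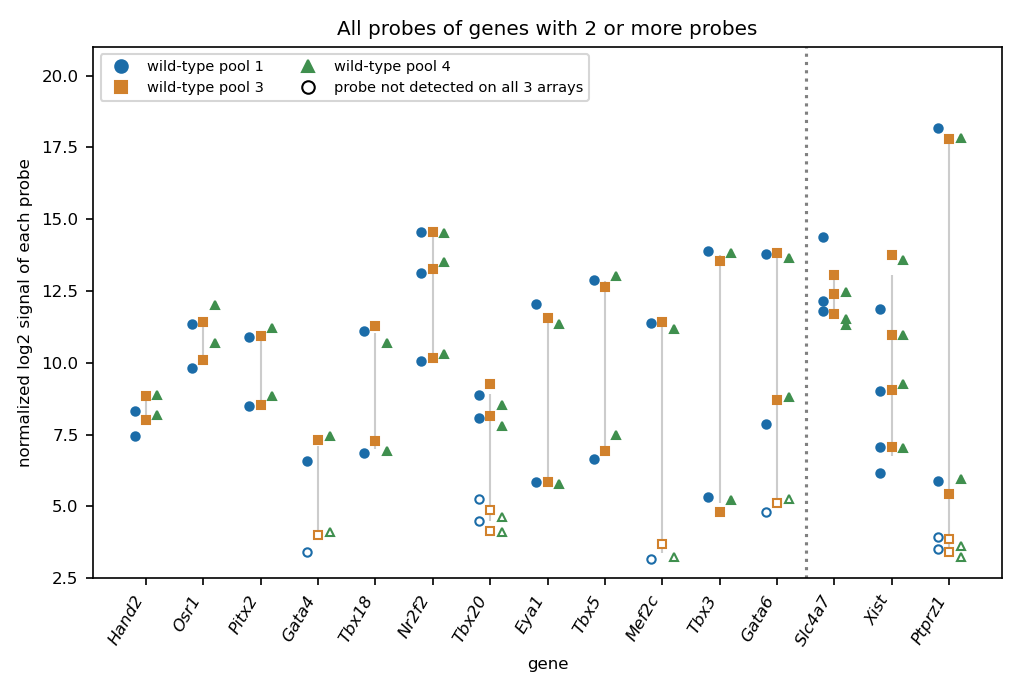
Normalized log2 signal (y axis) of every probe of 12 field genes with 2 or more probes and, right of the dotted line, of Slc4a7, Xist and Ptprz1, in wild-type pools 1, 3 and 4; filled symbols are probes detected on all 3 arrays. Probes of 1 gene often lie several log2 units apart, as for the 2 detected Ptprz1 probes at 17.94 and 5.76, while pools mostly differ far less on a given probe.

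Transcription factors were detected at about the background share. Of 310 factors in the family lists, 227 (73.2%) were detected and 36 lay above the upper quartile. Homeobox cofactors were complete, with 9 of 9 Meis and Pbx genes detected and *Meis2* the brightest at 15.81, 15.61 and 15.44. All 9 retinoid and COUP nuclear receptors, all 6 Gata genes, all 6 Mef2 and Srf genes and all 3 Gli factors, which transmit Hedgehog signals, were detected.

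The Gli genes differed in brightness, with *Gli3* at 12.67, 12.43 and 12.39, *Gli2* at 9.64, 9.80 and 10.07, and *Gli1*, itself a Hedgehog target, at 6.87, 6.95 and 7.58. *Gli1* and *Gli2* were both highest in pool 4. The T-box family held 10 detected genes of 16, and the hindlimb factor *Tbx4* was above background on 1 array only.

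Hox genes, which are activated in order along the body axis, were detected in 22 of 38 cases (57.9%). All detected members belonged to paralogue groups 1 to 9, led by *Hoxb2* at 13.07, 12.99 and 12.99, and none of the measured genes of groups 10 to 13 was detected on all 3 arrays. In 14 of the 22 genes pool 4 was highest, compared with 4046 of all 14831 detected genes. *Hoxb6* read 8.66, 9.42 and 9.87, and *Hoxa7* 6.85, 7.34 and 7.99. *Hoxb6* has a second, dimmer probe at 6.91, 6.74 and 6.53, on which the order of the pools is turned.

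Forkhead genes were detected in 33 of 40 cases. *Foxa2*, the endodermal pioneer factor, read 14.00, 13.81 and 13.72. Among other factors, 5 of 9 Pax genes, 9 of 19 proneural and myogenic bHLH genes, 1 of 5 Zic genes and 0 of 3 Cdx genes were detected, all below the share of all named genes. *Cdx2* was above background on 2 arrays, and *Cdx1* and *Cdx4* on none.

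Ligands and receptors differed in how often they were detected. Of 153 ligands 115 (75.2%) passed, and of 110 receptors 100 (90.9%). Genes are called on the brightest of their probes, and these shares were not adjusted for the number of probes per gene. Several receptor families were complete, with 18 of 18 Wnt receptors, 7 of 7 Hedgehog receptors and co-receptors, 5 of 5 Fgf receptors and 4 of 4 Notch receptors. The lowest shares were those of the Eph receptors (10 of 14), the Egf and neuregulin receptors (3 of 4) and the group of other receptors (12 of 14). Of the ligands of the same pathways, all 3 Hedgehog and all 5 Notch ligands were detected, but only 16 of 23 Wnt and R-spondin genes and 9 of 21 Fgf genes.

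In the Hedgehog pathway, *Shh*, the ligand made by foregut endoderm, read 10.72, 10.73 and 9.98, and was lowest in pool 4. *Smo*, the signal transducer, read 15.33, 15.16 and 15.11. The receptor *Ptch1* read 6.37, 6.70 and 6.71, while the co-receptor *Cdon* read 12.51, 12.39 and 12.13 and the co-receptor *Gas1* 11.91, 11.72 and 11.83. The other ligands were also detected, *Ihh* at 6.72, 7.21 and 7.09 and *Dhh* at 9.22, 8.74 and 8.93.

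In the Wnt family the 2 brightest genes were *Wnt2* and *Rspo1*, an amplifier of Wnt signalling that read 14.82, 14.67 and 14.73. Ligands detected on no array were *Wnt3a*, *Wnt8a*, *Wnt8b* and *Wnt10b*. The brightest Fgf ligand was *Fgf5* (10.78, 10.50 and 10.29), and *Fgf10*, expressed in the second heart field, read 8.21, 8.61 and 8.46. *Fgf8* read 9.15, 9.19 and 8.22 and was lowest in pool 4.

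The Bmp ligands *Bmp7* (13.72, 13.66 and 13.34) and *Bmp4* (11.25, 11.72 and 11.52) were detected, and the receptor *Bmpr1a* read 12.75, 12.73 and 12.52. *Igf2*, a growth factor of embryonic tissue, read 16.51, 16.40 and 16.37, and the heparin-binding factor *Mdk* 17.27, 16.95 and 16.82. No receptor had an SD between pools of at least 0.5, compared with 4 of the 115 ligands, 13 of the 227 transcription factors and 3.02% of all detected genes.

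The labelled tissue was checked against markers of the tissues that the dissection could hold. Of 19 foregut endoderm genes 17 were detected, led by the keratins *Krt18* (15.98, 16.14 and 15.88) and *Krt8* (14.76, 15.06 and 14.73). All 16 endothelial, 10 epicardial and mesothelial and 19 extracellular matrix genes were detected. *Vim*, the mesenchymal intermediate filament, read 15.48, 15.44 and 15.43, and *Col1a1* 14.25, 14.27 and 14.29.

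Although the heart had been removed, all 18 cardiomyocyte genes were detected and 12 lay above the upper quartile. *Myl7*, the atrial myosin light chain, read 17.36, 17.12 and 16.79. *Tnnt2*, cardiac troponin T, read 14.54, 14.67 and 14.08, and *Actc1*, cardiac actin, 14.95, 14.84 and 14.20. All 3 were lowest in pool 4.

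Of 15 liver bud genes 14 were detected, and 4 of these lay above the upper quartile. *Afp*, the fetal serum protein, read 16.97, 16.80 and 16.77, and *Alb*, albumin, 11.18, 11.43 and 11.76. All 15 genes of the embryonic erythroid list were detected, led by the embryonic globins *Hbb-bh1* (17.91, 17.40 and 17.32) and *Hbb-y* (17.71, 16.76 and 16.88). Some globin genes are near-identical copies, so that their probes may share signal, which was not tested.

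Neural tube genes were detected in 13 of 19 cases, close to the background share, and 0 of the 13 lay above the upper quartile. *Nkx6-1* was the brightest, at 12.13, 12.02 and 12.26, and *Sox1* was above background on no array. In the myotome list 6 of 9 genes were detected, and the muscle determination factors *Myod1* and *Myf5* were above background on no array. Other embryonic tissues not named in the dissection had high shares, with all 10 sclerotome and somite, 7 notochord and floor plate and 9 surface ectoderm genes detected. Of 15 neural crest and pharyngeal arch genes 13 were detected. Full detection of a list thus does not single out the tissues of the dissected piece.

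The lowest shares were those of some lists of tissues foreign to the E9.5 pSHF. Detected were 3 of 12 cornified epidermis, 4 of 13 lymphocyte, 5 of 14 lens and photoreceptor and 6 of 12 sperm genes. These shares are not 0. *Krt10* read 11.83, 11.86 and 11.62, *Lck*, a T cell kinase, 9.23, 9.25 and 9.43, and the protamine *Prm1* 8.30, 7.65 and 7.10. A detected probe thus stands for signal above background on that probe, and the presence of the cell type was not tested.

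**Figure D3:**
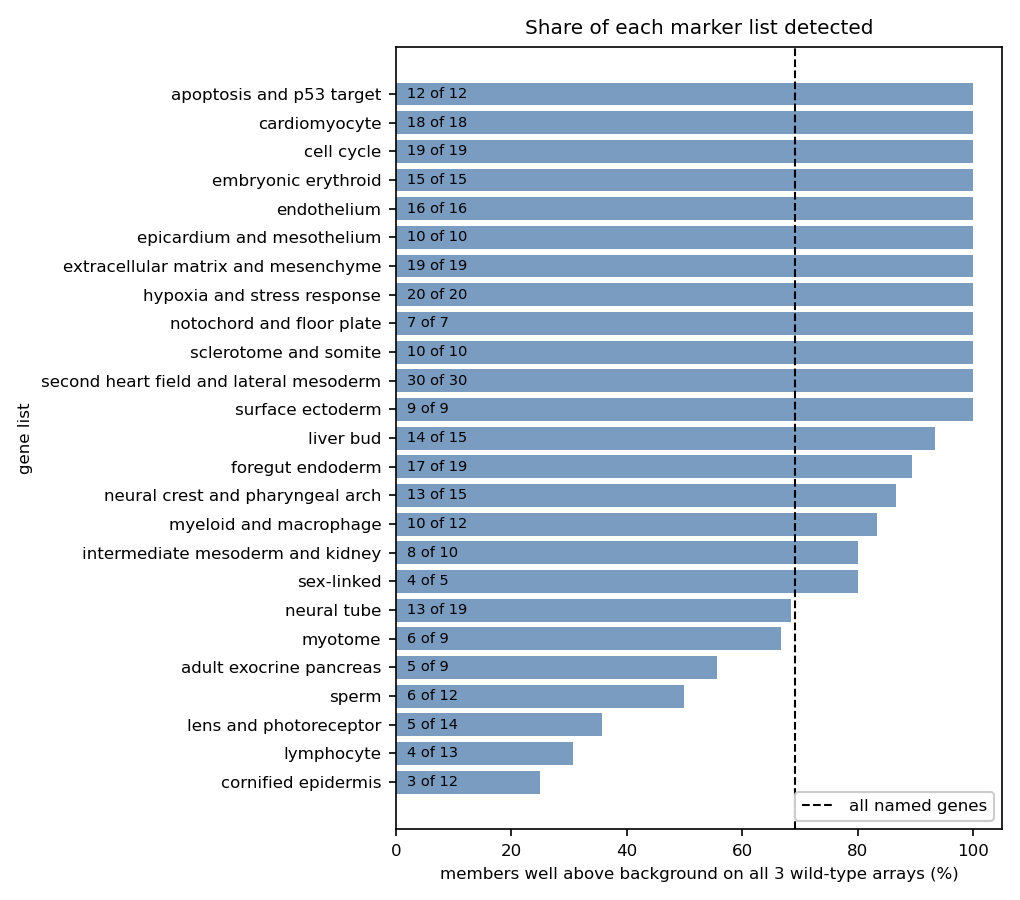
Share of the members of each marker list that were well above background on all 3 wild-type arrays (x axis, percent) for 25 lists (y axis), with counts on the bars and the share of all named genes (69.2%) as a dashed line. The second heart field, endothelial, erythroid and cardiomyocyte lists were detected in full, as were the sclerotome, notochord and surface ectoderm lists. The lymphocyte, lens and cornified epidermis lists fell well below the line.

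All 19 cell cycle genes were detected and 16 lay above the upper quartile, among them *Birc5* (16.63, 16.38 and 16.28), *Pcna* (16.23, 16.14 and 15.86) and *Plk1*, a mitotic kinase (15.26, 15.09 and 15.21). *Ldha*, lactate dehydrogenase, read 17.18, 16.89 and 16.83. Immediate early genes were mixed, with *Fos* at 5.05, 5.03 and 4.75 and *Jun* at 11.71, 11.44 and 11.57.

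The 20 brightest genes were mostly those of the ribosome, 12 of them ribosomal protein genes. The glycolytic enzyme *Aldoa* read 18.03, 17.94 and 17.80 and *Rps28* 18.19, 17.81 and 17.73. The highest level of all, 17.94, belonged to *Ptprz1*, a receptor phosphatase of the nervous system, and rested on 1 of its 4 probes. That probe is shown first, and the next brightest one second.

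Ptprz1, chr6:22951569-22951628, plus strand: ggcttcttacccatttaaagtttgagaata
Ptprz1, chr6:23002046-23002106, plus strand: tctggacagtaatggtgcagctttgcctga

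The second *Ptprz1* probe read 5.90, 5.44 and 5.94, and the other 2 were above background on no array. The first place of *Ptprz1* is therefore a property of 1 probe. What that probe bound was not tested.

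Replicate pools were compared by correlation and by SD. Over 23006 detected probes, which are not independent, Pearson's r was 0.995 for pools 1 and 3, 0.991 for pools 1 and 4 and 0.995 for pools 3 and 4. Wide differences in brightness between probes bring r near 1, so r says little about how far a given gene differs between pools. The median SD between pools was 0.155 and the 90th percentile 0.34. On probes spotted repeatedly, 188 of which were detected, the median SD between spots of 1 array was 0.037, against 0.173 between pools. Spots of 1 array thus varied several times less than pools.

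An SD between pools of at least 0.5 was found for 448 genes, or 3.02% of those detected, and an SD of at least 1 for 30. Dim genes dominated, with 6.69% of genes below the lower quartile of levels and 0.701% of those above the upper quartile past 0.5. The count was 215 after quantile normalization and 857 without pool 3. Pool 1 was highest for 217 of these 448 genes, pool 4 for 170 and pool 3 for 61. Of 363 such genes also detected in all mutant pools, 144 (39.7%) had an SD of at least 0.5 over the 4 mutant pools as well, against 4.59% of all 13999 genes detected in both.

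The myotome list had 2 of 6 detected genes with an SD of at least 0.5, *Myog* and *Myh3*, and 3 of its 6 genes were lowest in pool 3 and 3 in pool 1. *Myog*, the myogenic differentiation factor, read 7.66, 4.69 and 7.03, and *Myh3*, embryonic myosin heavy chain, 8.98, 6.99 and 9.27, with pool 3 low. Both probes of *Myh3* had this order. *Hes5*, a Notch target, read 7.91, 10.57 and 9.98, and *Nkx6-2*, a homeobox factor, 8.40, 10.50 and 9.78, with pool 1 low in both.

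Other regulators with the largest spreads were *Lefty2*, a Nodal inhibitor (4.88, 4.33 and 6.23), *Pax1*, a sclerotome and pharyngeal pouch factor (10.36, 8.75 and 9.15), *Foxo3* (5.78, 4.35 and 4.52), *Dlx5* (6.19, 7.31 and 5.94) and *Dll4*, an endothelial Notch ligand (5.90, 6.14 and 7.03). With *Myog*, *Hes5*, *Nkx6-2*, *Hoxb6* and *Hoxa7*, these are the 10 largest of the lists. Of these, *Lefty2*, *Foxo3*, *Dll4*, *Dlx5*, *Hoxa7* and *Myog* lay below the lower quartile of levels. The lowest pool values of *Lefty2* (4.33), *Foxo3* (4.35) and *Myog* (4.69) lay close to background. The highest level of a gene above background on no array was 4.36.

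A variable gene was not always variable on its other probes. Of 95 variable genes with a second detected probe, 36 (37.9%) had an SD of at least 0.5 on that probe too, against 3.09% of all second probes, and 55 had the same highest and lowest pool on both, whereas 33 had an SD under 0.25 on the second. *Slc4a7*, a sodium bicarbonate cotransporter and the brightest of the 20 most variable genes, is such a case. Its 3 probes are shown from the brightest to the dimmest.

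Slc4a7, chr14:15572341-15572400, plus strand: aaaggttcacgagtcggattcccctggttc
Slc4a7, chr14:15614734-15618862, plus strand: atggttcttgcattagtctttgtgcgcaag
Slc4a7, chr14:15632300-15632359, plus strand: gacctgatatttttcatctatatgaagtac

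The first *Slc4a7* probe read 14.37, 13.05 and 11.32 in pools 1, 3 and 4. The second read 12.15, 12.39 and 12.47, and the last 11.80, 11.70 and 11.53. The wide fall from pool 1 to pool 4 was thus seen on 1 probe of 3. *Xist*, in contrast, was lowest in pool 1 on all 4 of its probes, with SDs from 0.53 to 1.22. Their levels ran from 13.07 to 6.76, and the highest pool was 3 on some and 4 on others.

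**Figure D4:**
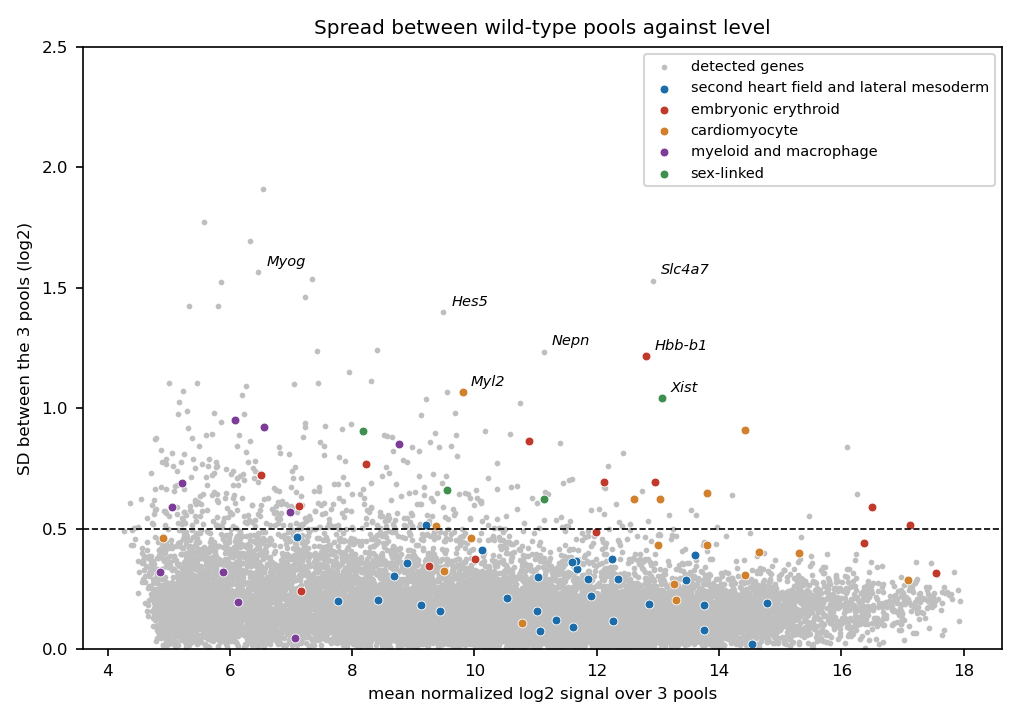
SD between the 3 wild-type pools (y axis, log2) against mean normalized log2 signal (x axis) for all detected genes in grey, with 5 marker lists in colour and a dashed line at 0.5. Many erythroid, myeloid and sex-linked genes and several cardiomyocyte genes lie above 0.5, while the second heart field genes lie below it with 1 exception, Hand1.

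In several tissue lists most detected members had the same highest or the same lowest pool. Of 15 embryonic erythroid genes 9 had an SD of at least 0.5, and all 15 were highest in pool 1, where the list's median deviation was 0.68, against −0.35 and −0.25 in pools 3 and 4. Over all detected genes pool 1 was highest for 7525 of 14831, so that a majority in pool 1 is also the general pattern. *Slc4a1*, the red cell anion exchanger, read 12.92, 11.69 and 11.75, and *Hemgn*, an erythroid nuclear factor, 11.85, 10.18 and 10.63.

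In the cardiomyocyte list 6 of 18 genes had an SD of at least 0.5, and 16 of 18 were lowest in pool 4, where the median deviation was −0.46. With the authors' values it was 0.253, and −0.508 once these were set to 1 median. *Myl2*, the ventricular myosin light chain, read 10.11, 10.69 and 8.62, and *Myh7*, the slow myosin heavy chain, 14.41, 15.35 and 13.53. Pool 4 was lowest for 7299 of all 14831 genes. The pools also differed with brightness, since in the brightest of 6 equal groups of genes the median deviation was 0.134 in pool 1 and −0.131 in pool 4, and the part of this in the cardiomyocyte values was not tested.

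Of 10 detected myeloid genes 9 were lowest in pool 3, with a median deviation of −0.66 there, and 6 had an SD of at least 0.5. Pool 3 was lowest for 3252 of all 14831 genes, and the deviation was −0.292 after quantile normalization. *Mpo*, a granule enzyme of early myeloid cells, read 9.37, 7.80 and 9.14, and *Tyrobp*, a signalling adaptor of macrophages, 7.22, 5.50 and 6.94. Of 12 genes on the array 2 were not detected in every pool, *C1qa* and *Emr1* (current symbol *Adgre1*), and all members lay below 10.

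The sclerotome and somite list was highest in pool 1 for 9 of 10 genes, with a median deviation of 0.36 that was 0.004 with the authors' values, whose arrays are not at 1 median, and 0.469 once these were set to 1 median. *Meox2*, a somite homeobox factor, read 10.43, 8.74 and 9.66 and was, with *Pax1*, 1 of 2 members with an SD of at least 0.5. Of 14 detected liver bud genes 10 were highest in pool 4, with a median deviation of 0.25 that was 0.065 without pool 1, 0.153 without pool 3 and 0.14 with the mean of all detected probes. *Apob*, an apolipoprotein, read 6.60, 6.37 and 7.37. The other 4 liver bud genes, the bright *Afp* among them, were highest in pool 1. Over all 14831 detected genes pool 1 was highest for 7525 and pool 4 for 4046.

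Mutant pools that shared a slide and number with these pools were set beside them. In the cardiomyocyte list mutant pool 4 had a median deviation of −0.84 from the mean of the 4 mutant pools and was lowest for 17 of 18 genes. In the myeloid list mutant pool 3 was also the lowest of its group, at −0.37, and was lowest for 6 of 10 genes. In the erythroid list the highest mutant pool was pool 2, at 0.31, a number with no wild-type array. Of mutant pools 1, 3 and 4, pool 1 was the highest for this list, at 0.14, against −0.21 and −0.19. In the sclerotome list the highest mutant pool was pool 4, at 0.22. In the liver bud list it was pool 3, at 0.205, with mutant pool 4 at −0.037. The first 2 lists thus had the same lowest number in both genotypes. The erythroid list had the same highest number only among the shared numbers, and the sclerotome and liver bud lists did not.

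**Figure D5:**
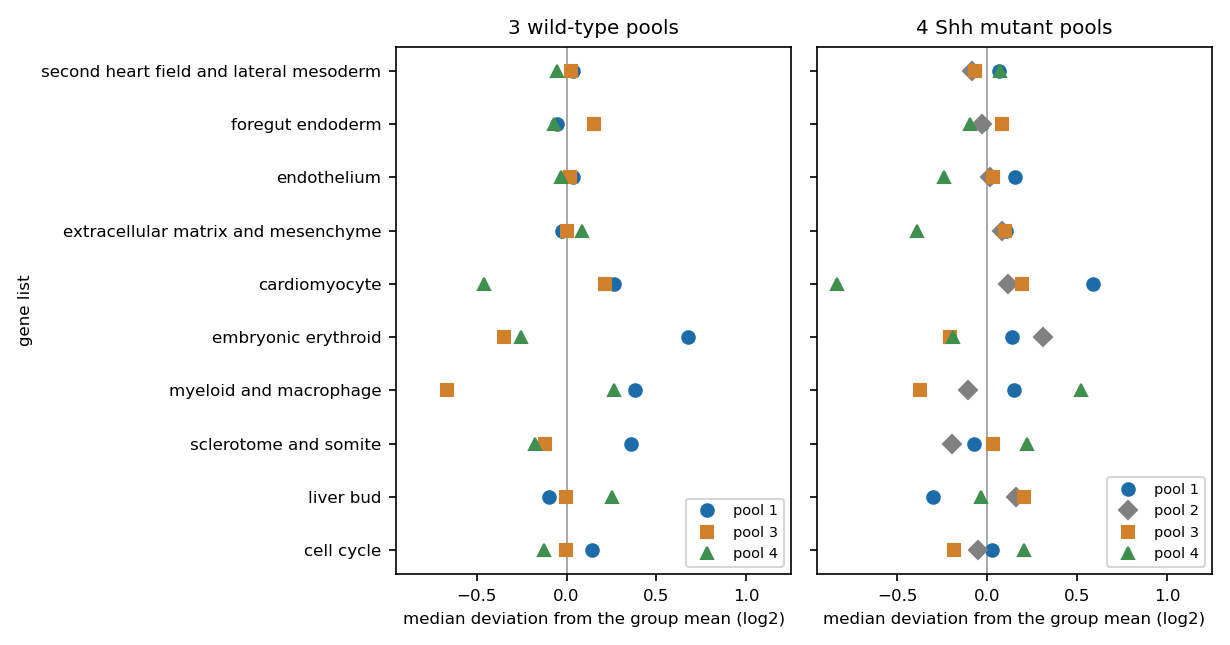
Median deviation from the group mean (x axis, log2) of 10 gene lists (y axis) in the 3 wild-type pools (left) and the 4 Shh mutant pools (right), over the members detected in wild type. The second heart field list stays within 0.1 of 0 in every pool, while the erythroid list is high in wild-type pool 1 and the cardiomyocyte list is low in pool 4 of both groups.

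Sex-linked genes also differed between pools. *Xist*, expressed from the inactive X chromosome of females, read 11.87, 13.77 and 13.57 on its brightest probe. The Y-linked genes *Eif2s3y* (11.83, 10.61 and 10.97), *Ddx3y* (10.25, 8.94 and 9.45) and *Jarid1d*, now *Kdm5d* (9.18, 7.45 and 7.88), had the opposite order to that probe, with pool 1 high and pool 3 low. Both kinds of transcript were detected in every pool.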

How the data were processed

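The authors' deposited scan files give, per spot, mean signal and background as intensity read by Agilent Feature Extraction 10.5.1.1, for 43379 spots and 41174 probes, and a deposited table gives the authors' normalized values as log2 for 63.8% of the probes. Groups and pool numbers were taken from the labels, in which strain and genotype stand under each other's heading.

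Mean signals were corrected by normexp on 153 negative control spots per array (offset 50) and the 7 arrays were normalized together by variance stabilization (VSN, own implementation, trimming share 0.9, 7 iterations, 5 strata), after the methods of the study. Feature outliers, 155 to 193 spots per wild-type array, were left out and repeated spots averaged. The estimators were tested on simulated data. The number of arrays limits the precision. Of 21439 genes 19895 were matched to a current RefSeq symbol, and files' symbols were kept.

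The members and gene lists were chosen with earlier results of these data known. All list members could be named, besides the 20 brightest genes, the 20 with the largest SD and the 10 regulators with the largest SD. Alternatives were other calls of detection, other normalizations, no background correction, the authors' values, other probe rules, outlier spots kept and leaving out each pool. Centring the authors' values and following list deviations were added after seeing the data. Python 3.11.15, numpy 2.4.6, pandas 2.3.3, scipy 1.17.1 and matplotlib 3.10.9 were used. Probe positions relative to exons and UTRs were not analysed here. A few list members and variable genes are left out of the text.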

Additional observations from a re-analysis of the deposited data

Results flagged for a closer look

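A signal was present in probes that no gene list used. Of 6427 probes with no gene name, 2181 (33.9%) were well above background on all 3 wild-type arrays, against 23006 of 34747 probes with a gene name. The share of 69.2% given above is one of genes, each on its brightest probe. What these probes read was not analysed here.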

How the results depend on the processing

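No paired analysis was possible because only 1 group was described and no test between groups was made. The count of detected genes was 15840 with a call on at least 2 arrays, 15503 by the negative control spots and 14841 with outlier spots kept, and ranged from 14851 to 15778 with 1 pool left out. In 450 of 456 list counts under these calls the value stayed within 1.5 times. The exceptions, with a call on at least 2 arrays and without pool 1 alike, were Zic (2), Cdx (1, against 0 without pool 3 or 4) and Egf and neuregulin ligands (6). The median SD was between 0.119 and 0.186 under the other alternatives, but 0.573 with the authors' values, whose array medians are 8.57, 8.74 and 9.80, and 0.186 once these were set to 1 median. Leaving out a pool gave 0.108 to 0.172. The count of variable genes was 215 under quantile normalization, which kept 203 of the 448, then 10503 with the authors' values and 739 with these set to 1 median. Without a pool it was 456 to 857, the highest without pool 3, where 344 of the 448 remained, against 241 without pool 1 and 253 without pool 4. With the authors' values the cardiomyocyte list stood at 0.25 in pool 4, the second heart field list at −0.377 in pool 1 and the liver bud list at 0.93 in pool 4, and with the mean of all probes the second heart field list stood at −0.033 in pool 1, where leaving out 1 other pool gave −0.013 to 0.052. The deviations followed were those of 6 lists in 1 pool each, and the other values of these 6 kept their sign, down to 0.004 for the sclerotome list in pool 1 with the authors' values. The deviations of other lists and pools were not followed. The brightness percentile was followed for 50 genes, the 30 of the second heart field list and the 20 brightest, which stand at the top by choice. All 50 stayed within 5 points under each normalization. With the mean of all detected probes 25 did, and *Tbx3* moved by 35.9 points. Of the field genes 17 have 1 probe, so their own values could not change under that rule. Without pool 1, 45 of the 50 stayed within 5 points.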
